A study of Mus musculus with 12 samples.

Results

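The genes described here are 10 antioxidant and glutathione genes that red cells depend on, out of 46603 Ensembl gene identifiers counted in 12 mouse RNA sequencing libraries. They were chosen by name for their roles: Cat, Gpx1, Prdx2 and Sod1 in the removal of peroxide and superoxide, Gclc and Gclm in glutathione synthesis, Gsr, Txnrd1 and G6pdx in the supply of reducing power, and Gstt1 in the transfer of glutathione to other molecules. All 10 had a matching identifier, and all averaged over 1 CPM (counts per M counts, with globin transcripts left out of both the gene list and the total). The libraries came from C57/Bl6 mice aged 8 months that lacked nuclear myosin 1 (KO) and from wild-type mice of that strain and age (WT). Nuclear myosin 1, or NM1, is a form of the motor protein gene Myo1c that works in the nucleus. The 4 groups were KO blood, WT blood, KO spleen and WT spleen, with 3 libraries each. Blood was taken from the submandibular vein, and the spleen sample was a small piece of the organ's tip. The labels describe neither the NM1 allele nor a treatment. They do not tie each library to a mouse of its own, so the p-values measure the spread between libraries, which may in part be technical. Myo1c counts sum all forms of the gene and lay between 58.5 and 219 CPM over the 12 libraries, so they cannot check the knockout.

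Red cells carry oxygen on haem iron, and this chemistry steadily leaks superoxide and hydrogen peroxide. Superoxide dismutase turns superoxide into peroxide, which catalase, glutathione peroxidase and peroxiredoxin remove. Glutathione is built by an enzyme with a catalytic and a modifier subunit, and NADPH from the pentose phosphate pathway returns oxidised glutathione and thioredoxin to their reduced forms. Mature red cells have no nucleus and make no new transcripts, so the messenger RNA they hold was made earlier, in erythroblasts. The transcription factor NRF2 drives many of these genes through the antioxidant response element, and the erythroid factors KLF1 and GATA1 act through CACCC boxes and GATA sites.

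Promoters of 8 of the 10 members, all but Gclc and Gsr, were found in a RefSeq table (build GRCm38.p6). Of these, 4 are printed for the place of their genes in the pattern described next. By CPM, Cat and Gclm stood higher in every library rich in globin than in any other, as did 3.49% of genes. Sod1 stood lower in every such library, as did 49.8% of genes. Prdx2 had the widest range of the 10 members among the libraries poor in globin. Each run holds the bases before the annotated gene start, 5′ to 3′ on the strand of the gene. The Cat run is chr2:103485161-103485403 on the minus strand, and the others are on the plus strand at chr3:122245307-122245556 (Gclm), chr8:84969372-84969586 (Prdx2) and chr16:90220512-90220753 (Sod1). Capitals mark matches, on either strand, to the core of the antioxidant response element (TGACNNNGC) or to a CACCC box (CCNCACCC).
Cat: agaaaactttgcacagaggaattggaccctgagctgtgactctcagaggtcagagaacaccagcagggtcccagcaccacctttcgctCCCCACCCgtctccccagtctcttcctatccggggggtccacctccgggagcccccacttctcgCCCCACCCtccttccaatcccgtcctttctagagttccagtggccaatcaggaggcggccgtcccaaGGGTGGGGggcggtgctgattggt
Gclm: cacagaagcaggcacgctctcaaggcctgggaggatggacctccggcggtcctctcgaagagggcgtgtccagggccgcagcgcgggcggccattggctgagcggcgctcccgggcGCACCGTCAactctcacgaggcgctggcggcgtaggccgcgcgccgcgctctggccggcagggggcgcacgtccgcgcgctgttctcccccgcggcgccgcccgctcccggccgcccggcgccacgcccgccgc
Prdx2: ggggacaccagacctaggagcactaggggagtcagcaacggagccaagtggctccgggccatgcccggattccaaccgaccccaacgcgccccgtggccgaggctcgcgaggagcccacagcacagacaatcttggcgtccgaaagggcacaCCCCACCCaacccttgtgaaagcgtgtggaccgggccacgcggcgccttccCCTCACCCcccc
Sod1: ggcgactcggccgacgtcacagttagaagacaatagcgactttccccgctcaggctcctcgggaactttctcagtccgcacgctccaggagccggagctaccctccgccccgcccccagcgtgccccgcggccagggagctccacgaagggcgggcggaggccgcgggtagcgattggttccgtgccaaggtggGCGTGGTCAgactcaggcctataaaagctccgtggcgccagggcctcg

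The search covered both strands of the 250 bases before each RefSeq start, and no match overlapped another. The response element core was present for 4 of the 8 members: Gclm at position -134 from the start, Sod1 at -56, G6pdx at -57 and Txnrd1 at -92, in 1 of its listed windows. Of all 32851 RefSeq promoters in the table, 10.16% held this core. CACCC boxes were present for 2 of the 8, in Cat at -162, -98 and -31 and in Prdx2 at -98 and -47, beside 14.86% of all promoters. A GATA site (AGATAA or TGATAA) was present in 0 of the 8 members searched, beside 16.6% of all promoters. A match describes letters in the window and shows no binding.

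Globin took 48.9% to 56.1% of the counts in 6 libraries, called globin-rich here, and 0.846% to 5.90% in the other 6, called globin-poor; the line between the classes is 25%. The globin-rich libraries were those labelled KO blood 02, KO blood 03, KO spleen 03, WT blood 01, WT spleen 02 and WT spleen 04. Each class thus held 3 KO and 3 WT libraries and both tissue labels. The tissue labels did not match the marker genes in 6 libraries. Vcam1, which marks the macrophages of splenic red pulp, lay at 0 to 1.72 CPM in globin-rich libraries and at 197 to 411 CPM in globin-poor libraries, whichever tissue the label named. Its count was 0 in KO blood 03 and KO spleen 03. Summed red cell markers were 93164 to 145564 CPM in globin-rich libraries and 1338 to 17974 CPM in globin-poor libraries. Summed platelet markers were 3047 to 9483 CPM in globin-rich libraries and 283 to 520 CPM in globin-poor libraries. Summed erythroblast and cell cycle markers were 154 to 376 CPM in globin-rich libraries and 656 to 6667 CPM in globin-poor libraries. Tissue names below are those of the labels. Total counts were 9.32 to 12.1 M in globin-rich and 23.1 to 28.2 M in globin-poor libraries, of which 4.09 to 5.83 M in globin-rich and 21.8 to 27.4 M in globin-poor libraries were not globin. A count of 0 allows up to 3 counts, a level of 0.109 to 0.733 CPM. These limits cover counting error only.

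By CPM, Cat, Gpx1 and Gclm lay higher in every globin-rich library than in any globin-poor library. The same held for 3.49% of the 14538 genes averaging 1 CPM or more. Sod1, Gclc and Txnrd1 lay lower in every globin-rich library, as did 49.8% of those genes. With the TMM scaling given below, the classes overlapped for Sod1, Gclc and Txnrd1. Within each class KO and WT libraries overlapped by CPM for every member except Gsr in globin-poor libraries. The classes were drawn from the counts, so their difference is described and not tested. In bulk RNA, fewer cells of a type and less RNA per cell cannot be told apart. Library values follow a set order below: globin-rich KO (blood 02, blood 03, spleen 03), globin-rich WT (blood 01, spleen 02, spleen 04), globin-poor KO (blood 04, spleen 01, spleen 04) and globin-poor WT (blood 03, blood 04, spleen 01).

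**Figure D1:**
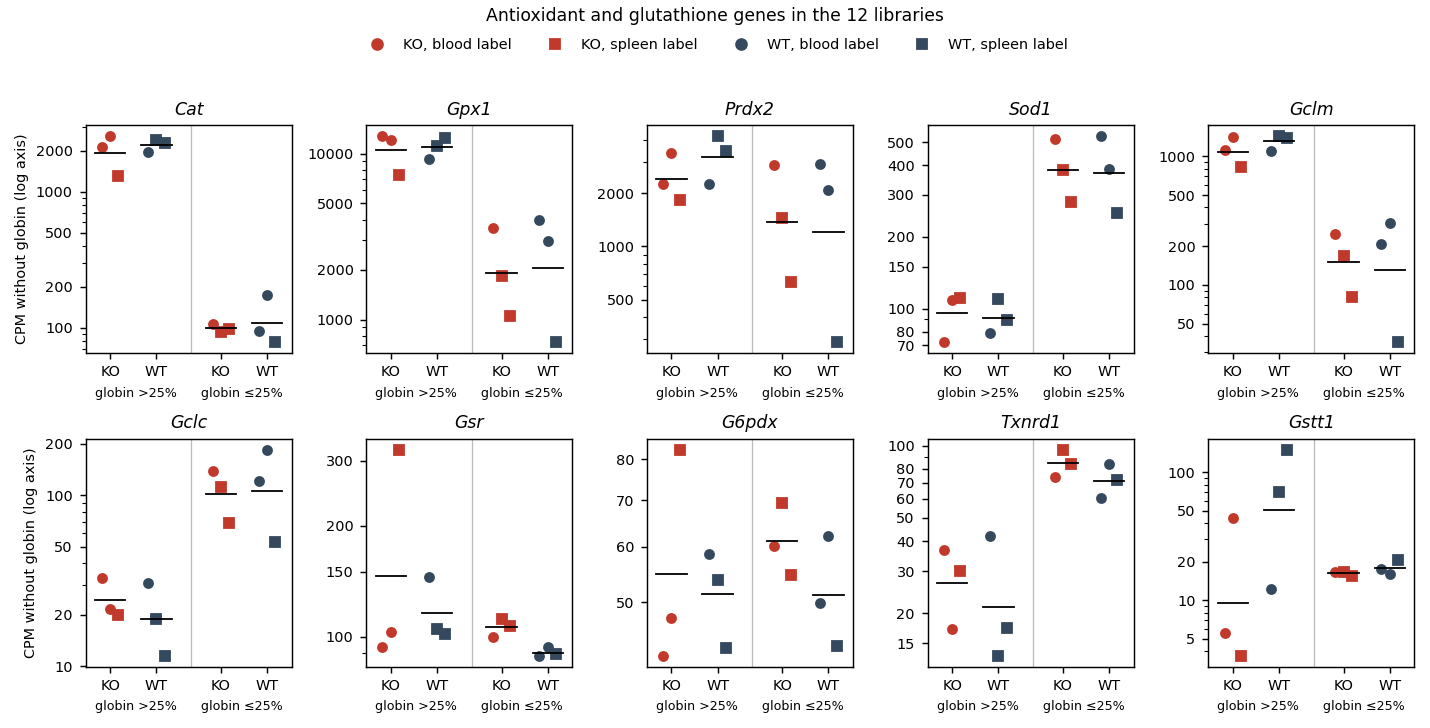
CPM without globin (log axes) of the 10 members in each library, by globin class and genotype; points are libraries, their shape is the tissue label and black lines are geometric means of 3 libraries. Cat lies between 1300 and 2573 CPM in globin-rich libraries and between 78.0 and 173 CPM in globin-poor libraries, and Gstt1 spreads from 3.66 to 151 CPM among the globin-rich libraries alone.

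Cat encodes catalase, which splits hydrogen peroxide into water and oxygen (ENSMUSG00000027187, chr2:103453849-103485160, minus strand, GRCm38). It stood at 2132, 2573 and 1300 CPM in globin-rich KO libraries and at 1955, 2414 and 2291 CPM in globin-rich WT libraries. In globin-poor libraries it stood at 106, 92.3 and 98.4 CPM in KO and at 94.7, 173 and 78.0 CPM in WT. The globin classes did not overlap, and KO and WT overlapped within both. The class means were 2111 ± 452 CPM in globin-rich libraries and 107 ± 33.7 CPM in globin-poor libraries (SD, n = 6 each), a ratio of 19.7 and the widest of the 10 members.

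Gpx1 encodes the glutathione peroxidase that carries selenium and is abundant in red cells (ENSMUSG00000063856, chr9:108338903-108340343, plus strand). Globin-rich KO libraries held 12778, 12014 and 7392 CPM, and globin-rich WT libraries 9295, 11152 and 12428 CPM. Globin-poor KO libraries held 3567, 1820 and 1053 CPM, and globin-poor WT libraries 3959, 2981 and 729 CPM. Again the classes were apart while the genotypes overlapped. Gpx1 alone made up 0.739% to 1.28% of the non-globin counts in globin-rich libraries and 0.0729% to 0.396% in globin-poor libraries. All 10 members together made up 1.19% to 2.00% in globin-rich and 0.166% to 0.804% in globin-poor libraries. Per kilobase of exon, Gpx1 had the highest median level of the 10 members in both classes, at 8038 CPM per kb in globin-rich and 1666 CPM per kb in globin-poor libraries. Cat had 846 CPM per kb in globin-rich libraries and 36.9 CPM per kb in globin-poor libraries. In globin-poor libraries the Cat median per kb was below that of Sod1 (96.7 CPM per kb), which stood at 24.9 CPM per kb in globin-rich libraries.

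Prdx2, the cytosolic peroxiredoxin of red cells, reduces low amounts of peroxide with electrons from thioredoxin (ENSMUSG00000005161, chr8:84969587-84974834, plus strand). It stood at 2242, 3393 and 1819 CPM in globin-rich KO and at 2240, 4216 and 3440 CPM in globin-rich WT libraries. In globin-poor libraries it stood at 2881, 1455 and 631 CPM in KO and at 2909, 2096 and 287 CPM in WT. Unlike Cat and Gpx1, the Prdx2 ranges of the classes overlapped, because the 3 globin-poor libraries labelled blood reached globin-rich levels. Its class ratio was 1.69.

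Sod1, the copper and zinc dismutase of the cytosol, went the other way (ENSMUSG00000022982, chr16:90220754-90226329, plus strand). It stood at 72.1, 109 and 111 CPM in globin-rich KO and at 78.6, 109 and 89.4 CPM in globin-rich WT libraries. Globin-poor libraries held 516, 383 and 281 CPM in KO and 531, 384 and 253 CPM in WT. Every globin-rich library lay below every globin-poor one, as for 49.8% of genes by CPM, with a log2 ratio of -2.05. The gene Scaf4 overlaps Sod1, and Junb and Rnaseh2a overlap Prdx2, each on the opposite strand. Because the strand setting of the counting is not given in the sources used here, reads of such neighbours cannot be told apart with certainty.

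The subunits of glutamate-cysteine ligase, the enzyme that limits the rate of glutathione synthesis, parted by globin class. Gclm, the modifier subunit (ENSMUSG00000028124, chr3:122245557-122270732, plus strand), stood at 1109, 1413 and 819 CPM in globin-rich KO and at 1101, 1442 and 1391 CPM in globin-rich WT libraries. In globin-poor libraries it stood at 250, 168 and 80.3 CPM in KO and at 207, 305 and 35.8 CPM in WT. The classes did not overlap, and the globin-rich mean was 6.96 times the globin-poor mean.

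Gclc, the catalytic subunit (ENSMUSG00000032350, chr9:77754535-77794485, plus strand), stood at 33.1, 21.6 and 20.1 CPM in globin-rich KO and at 30.7, 18.9 and 11.5 CPM in globin-rich WT libraries. In globin-poor libraries it stood at 139, 111 and 69.2 CPM in KO and at 122, 185 and 53.0 CPM in WT. Every globin-rich library was below every globin-poor one, as for 49.8% of genes by CPM, with a log2 ratio of -2.32. The ratio of Gclm to Gclc within a library does not depend on any scaling. It was 33.5, 65.4 and 40.7 in globin-rich KO and 35.9, 76.1 and 121 in globin-rich WT libraries. In globin-poor libraries it was 1.80, 1.51 and 1.16 in KO and 1.70, 1.65 and 0.675 in WT. WT spleen 01 was the only library with fewer Gclm than Gclc counts, and each globin-rich library had at least 33.5 times as many. Per kilobase of exon the ratio was 20.1 to 72.5 in globin-rich and 0.404 to 1.08 in globin-poor libraries.

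Gsr encodes glutathione reductase, which spends NADPH to restore glutathione (ENSMUSG00000031584, chr8:33652523-33698163, plus strand). It stood at 93.9, 103 and 322 CPM in globin-rich KO and at 145, 105 and 102 CPM in globin-rich WT libraries, against 99.9, 112 and 107 CPM in globin-poor KO and 88.4, 93.5 and 89.5 CPM in globin-poor WT libraries. KO spleen 03 was far above the rest, and the other 11 libraries lay between 88.4 and 145 CPM. G6pdx, glucose-6-phosphate dehydrogenase, opens the pentose phosphate pathway and makes NADPH (ENSMUSG00000031400, chrX:74409483-74429194, minus strand). It stood at 41.8, 47.5 and 82.6 CPM in globin-rich KO and at 58.5, 53.8 and 43.0 CPM in globin-rich WT libraries, against 60.3, 69.4 and 54.7 CPM in globin-poor KO and 49.9, 62.3 and 43.3 CPM in globin-poor WT libraries. KO spleen 03 was again the highest library, the classes overlapped and the class ratio was 0.963. Summed neutrophil markers were 5026 CPM in KO spleen 03 and 515 to 1657 CPM elsewhere, and their part in the Gsr and G6pdx values was not tested. Ikbkg, on the opposite strand, overlaps G6pdx and was counted at 29.9 to 82.6 CPM.

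Txnrd1, the cytosolic thioredoxin reductase, is a selenoprotein like Gpx1 (ENSMUSG00000020250, chr10:82833951-82897712, plus strand). It stood at 36.8, 17.3 and 30.2 CPM in globin-rich KO and at 42.0, 13.3 and 17.3 CPM in globin-rich WT libraries. The globin-poor libraries stood at 74.3, 96.1 and 84.0 CPM in KO and at 60.2, 83.6 and 72.2 CPM in WT. All globin-rich libraries were below all globin-poor libraries, as for 49.8% of genes by CPM, with a log2 ratio of -1.58.

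Gstt1 encodes the theta-class glutathione transferase known from red cells in humans (ENSMUSG00000001663, chr10:75783813-75798584, minus strand). It stood at 5.54, 43.8 and 3.66 CPM in globin-rich KO and at 12.2, 69.9 and 151 CPM in globin-rich WT libraries. In globin-poor libraries it stood at 16.6, 16.7 and 15.6 CPM in KO and at 17.6, 16.1 and 20.5 CPM in WT. The globin-poor libraries lie in a narrow band, while the globin-rich ones lie both below and above it. The globin-rich values rest on 31, 233 and 20 counts in KO and on 71, 321 and 616 counts in WT. The highest globin-rich library was 41.2 times the lowest, where the median gene of 7165 averaging 10 CPM or more reached 2.38 times and 0.0977% of genes spread as far. In globin-poor libraries the Gstt1 factor was 1.31. The neighbouring gene Gstt2 stood at 4.89 to 10.1 CPM in globin-rich libraries and 17.1 to 26.5 CPM in globin-poor libraries.

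By CPM, 3 of the 10 members (Cat, Gpx1 and Gclm) were higher in every globin-rich library, as were 3.49% of the 14538 genes averaging 1 CPM or more. Another 3 (Sod1, Gclc and Txnrd1) were lower in every globin-rich library, as were 49.8% of genes. Lower values were thus the common state, and the median gene stood at -1.16 on the log2 scale between the classes. The member median was 0.66. Scaling bears on the direction. With TMM factors, which set the median gene to -0.09, 5 members were higher (Cat, Gpx1, Gclm, Gsr and G6pdx, beside 13.1% of genes) and 0 were lower (beside 18.3% of genes). Sod1, Gclc and Txnrd1 then stood at -0.93, -1.30 and -0.57 with overlapping libraries. With globin kept in the total, 2 members were higher (Cat and Gclm, beside 1.61% of genes), 4 were lower (Sod1, Gclc, G6pdx and Txnrd1, beside 74.4%) and Prdx2 and Gsr turned to -0.27 and -0.48. Cat and Gclm were higher under all 3 scalings. Leaving out any single library added no member to the counts of 3 and 3 by CPM. It could not remove one, because classes that are apart stay apart with fewer libraries.

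**Figure D2:**
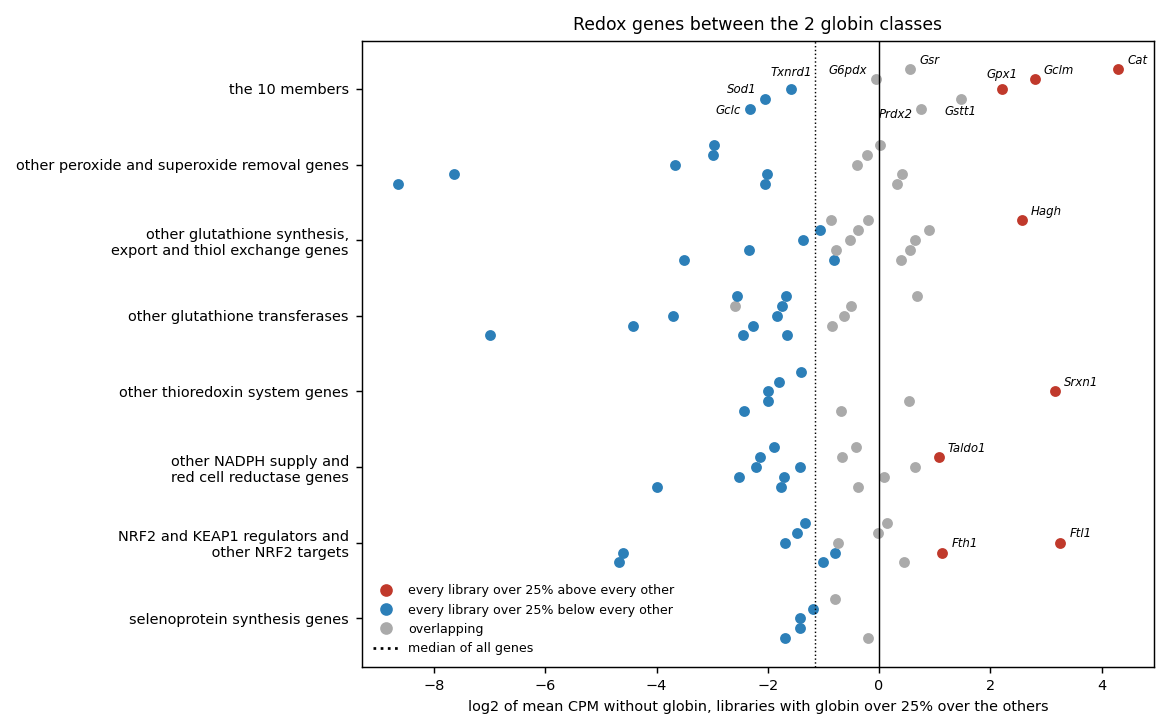
Log2 ratio of mean CPM without globin, globin-rich over globin-poor libraries, for the 10 members and for 7 further lists of redox genes; colour shows whether the libraries of the classes overlap, and the dotted line is the median of all genes at -1.16. Cat (4.30), Gclm (2.80) and Gpx1 (2.21) lie at the right end of the members, beside Ftl1 (3.26), Srxn1 (3.16) and Hagh (2.56) of the other lists.

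Other genes of the pathway were taken from 7 lists of 85 genes, of which 83 averaged at least 1 CPM. By CPM, 46 of the 83 (55.4%) were lower in every globin-rich library and 5 (6.02%) higher, shares near those of all genes (49.8% lower and 3.49% higher). With TMM factors 19 (22.9%) were lower and 13 (15.7%) higher, beside 18.3% and 13.1% of all genes. The list counts that follow are by CPM and read against the same shares, and the genes named kept their direction, with no overlap, under TMM factors. Of 12 other peroxide and superoxide genes, 0 were higher and 7 lower (58.3%, beside 49.8% of all genes) in every globin-rich library. With TMM factors 2 were higher and 4 lower. Sod3, the extracellular dismutase, lay at 0 to 0.653 CPM in globin-rich libraries and 74.9 to 140 CPM in globin-poor libraries. Gpx3, the plasma glutathione peroxidase, lay at 0 to 2.38 CPM in globin-rich libraries and 157 to 321 CPM in globin-poor libraries. Of 15 further glutathione synthesis and thiol exchange genes, 1 was higher and 5 lower (33.3%, beside 49.8% of all genes). With TMM factors 3 were higher and 2 lower. The higher one by CPM was Hagh, a glyoxalase that returns glutathione from its lactoyl form. It lay at 816 to 1477 CPM in globin-rich libraries and 43.3 to 314 CPM in globin-poor libraries. Slc7a11, the cystine carrier that feeds glutathione synthesis, was lower, at 0.376 to 3.70 CPM in globin-rich libraries and 12.3 to 34.3 CPM in globin-poor libraries.

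Of 15 measured glutathione transferases besides Gstt1, 0 were higher and 10 lower (66.7%, beside 49.8% of all genes), and with TMM factors 4 were lower. Of 8 thioredoxin system genes, 1 was higher and 5 lower (62.5%), and with TMM factors 3 were lower. Srxn1, sulfiredoxin, which repairs overoxidised peroxiredoxin, was the higher one, at 46.0 to 126 CPM in globin-rich libraries and 6.13 to 13.4 CPM in globin-poor libraries. Thioredoxin itself, Txn1, lay at 38.3 to 105 CPM in globin-rich libraries and at 225 to 386 CPM in globin-poor libraries. Of 14 NADPH supply and reductase genes, 1 was higher (Taldo1, transaldolase of the pentose phosphate pathway) and 8 were lower (57.1%). With TMM factors 3 were higher and 2 lower. Of 13 NRF2 regulators and targets, 2 were higher and 7 lower (53.8%, beside 49.8% of all genes), and with TMM factors 3 were higher and 3 lower. The ferritin chains Ftl1 and Fth1 were the higher pair by CPM. Ftl1 lay at 6003 to 9775 CPM in globin-rich libraries and 715 to 1011 CPM in globin-poor libraries. Hmox1, which breaks down haem and is strong in red pulp macrophages, was lower, at 2.50 to 25.0 CPM in globin-rich libraries and 198 to 283 CPM in globin-poor libraries. Of 6 selenoprotein synthesis genes, 0 were higher and 4 lower, and with TMM factors 1 was higher and 1 lower.

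Among the globin-poor libraries several members were ordered by tissue label. Prdx2 stood at 2881, 2909 and 2096 CPM under the blood label (KO 04, WT 03, WT 04) and at 1455, 631 and 287 CPM under the spleen label (KO 01, KO 04, WT 01). Its highest value was 10.1 times its lowest, a factor that 1.55% of 9909 genes reached. For Gclm the factor was 8.53 and for Gpx1 5.43. In all, 5 members (Prdx2, Gpx1, Sod1, Gclc and Gclm) lay higher in every blood-labelled than in every spleen-labelled globin-poor library, as did 9.44% of genes, and 0 lay lower, beside 26.3% of genes. With TMM factors Cat joined them, beside 14.9% of genes, and 0 lay lower, beside 14.4%. In globin-rich libraries 1 member, Gclc, was higher under the blood label by CPM, beside 7.22% of genes, and 0 were lower, beside 3.5%. With TMM factors 0 were higher, beside 8.66% of genes, and Gsr and G6pdx were lower under that label, beside 8.55% of genes.

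**Figure D3:**
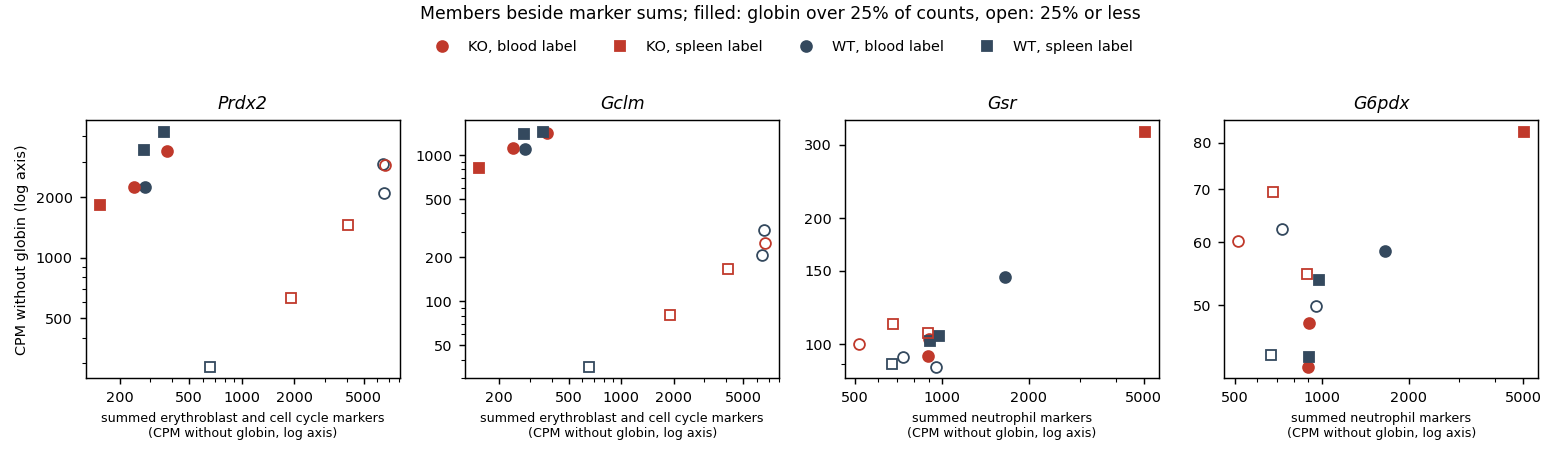
CPM without globin of Prdx2 and Gclm against summed erythroblast and cell cycle markers, and of Gsr and G6pdx against summed neutrophil markers, in each library (log axes). Open points, the globin-poor libraries, run from low Prdx2 at a sum of 656 CPM (WT spleen 01) to high Prdx2 at sums of 6443 to 6667 CPM, and KO spleen 03 stands alone at 5026 CPM of neutrophil markers.

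Among the globin-poor libraries, red cell and erythroblast marker sums were also higher under the blood label. Summed erythroblast and cell cycle markers in globin-poor libraries were 6667, 6443 and 6576 CPM under the blood label and 4070, 1911 and 656 CPM under the spleen label. Summed red cell markers were 15603, 15364 and 17974 CPM under the blood label and 8390, 3824 and 1338 CPM under the spleen label. Within the blood label, WT blood 04 had the highest red cell marker sum. It also had the lowest Prdx2, Gpx1 and Sod1 and the highest Gclc and Gclm of that label. The part of red cells and erythroblasts in the order of the libraries was not tested. Per 1000 counts of red cell markers, Prdx2 came to 17.9 to 29.0 in globin-rich and 117 to 215 in globin-poor libraries. Gpx1 came to 76.0 to 102 in globin-rich and 166 to 544 in globin-poor libraries, and Gclm to 8.79 to 10.2 in globin-rich and 13.5 to 26.8 in globin-poor libraries. Cat came to 14.0 to 18.4 in globin-rich and 6.16 to 58.3 in globin-poor libraries. On this scale Gclm and Gpx1 were lower in every globin-rich library, the reverse of their order by CPM. Prdx2, Sod1, Gclc, Gsr, G6pdx and Txnrd1 were lower too, and Cat and Gstt1 overlapped. The divisor was 93164 to 145564 CPM in globin-rich libraries and 1338 to 17974 CPM in globin-poor libraries. It thus lowers any gene in globin-rich relative to globin-poor libraries, and the share of all genes on this scale was not computed. Of the 17 red cell markers, 7 were higher in every globin-rich library by CPM, beside 3.49% of genes. Another 9 overlapped and 1 was lower, beside 49.8% of genes. The median marker had a log2 ratio of 1.32 between the classes by CPM, below that of Gclm (2.80) and Gpx1 (2.21). Per 1000 red cell counts, Gclm varied less across the globin-rich libraries than Prdx2, Gpx1 and Cat.

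Likeness was measured as Pearson's r of log2(CPM + 1) over the 12 libraries after subtracting the mean of each globin class, among 8863 protein-coding genes averaging 10 CPM or more. The libraries share their depth class and red cell content, so r is a description. Prdx2 was most like Ubac1, Glrx5 and Tspo2 (r = 0.99 each), and Gclm was most like Fech, Cd24a and Isg20 (r = 0.99 each). Fech inserts iron into haem, Glrx5 is a glutaredoxin of iron-sulfur cluster assembly and Tspo2 is an erythroid membrane protein. Gpx1 was most like Gadd45a (r = 0.99), Tspan8 and Aqp9, and Cat was most like Riok3 (r = 0.96), Mtmr3 and Dnaja4. Gsr was most like Atp6v1b2, Msrb1 and the neutrophil gene S100a8 (r = 0.95 to 0.96). G6pdx was most like Cpd (r = 0.96), Sephs2 and Rnf141, Sod1 like Rnaseh2c (r = 0.98), Copz1 and Epn1, and Gclc like Mier3 (r = 0.96), Ncapd3 and Cyth3. Txnrd1 was most like Myc (r = 0.98), Slc35a3 and Hs2st1, and Gstt1 like Tpm1 (r = 0.93) and Rph3al. Among the members, Prdx2, Gclm and Gpx1 varied together (r = 0.92 to 0.96), as did Gsr and G6pdx (r = 0.86), and Gstt1 and Txnrd1 ran opposite (r = -0.79). KO spleen 03 was the highest library for both Gsr (322 CPM) and G6pdx (82.6 CPM). Neither the r of Gsr with G6pdx nor that with S100a8 was computed without this library.

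The blood and spleen labels were compared over all 12 libraries with genotype and globin class as terms, by edgeR's quasi-likelihood test with Benjamini-Hochberg adjustment over 17555 genes. Of the 10 members 0 were called, beside 6 genes in all or 0.0342%. DESeq2 called 410 genes and 0 members. Gclc came nearest, at a log2 fold change of 0.81 ± 0.22 (SE) for blood over spleen, with an edgeR adjusted p of 0.195. With no filter on low counts it was called (0.83, edgeR adjusted p = 0.0228). Gpx1 stood at 0.80 ± 0.42, Prdx2 at 0.70 ± 0.57 and Gclm at 0.64 ± 0.47. Of the 85 pathway genes 0 were called, and 8 had an unadjusted p under 0.05.

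Whether loss of NM1 alters these genes was asked over all libraries, with tissue label and globin class as terms. No member was called: edgeR called 0 of 17555 genes (0%), although 816 had a p under 0.05 before adjustment, and DESeq2 called 1 gene and 0 members. The peroxide genes stood slightly below 0 for KO over WT, with Prdx2 at -0.51 ± 0.55, Cat at -0.37 ± 0.29, Gpx1 at -0.40 ± 0.40 and Sod1 at -0.15 ± 0.28 (log2 fold change ± SE). For glutathione synthesis, Gclm stood at -0.39 ± 0.45 and Gclc at -0.03 ± 0.22. Gsr stood at 0.18 ± 0.22, Txnrd1 at 0.12 ± 0.17 and G6pdx at 0.02 ± 0.19. Gstt1 had the largest estimate, -1.05 ± 0.78, and it ran from -1.71 without KO blood 03 to -0.58 without WT spleen 04. The smallest edgeR adjusted p of a member was 0.899. With no filter on low counts Gstt1 was called (-0.94 ± 0.23, edgeR adjusted p = 0.0396).

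**Figure D4:**
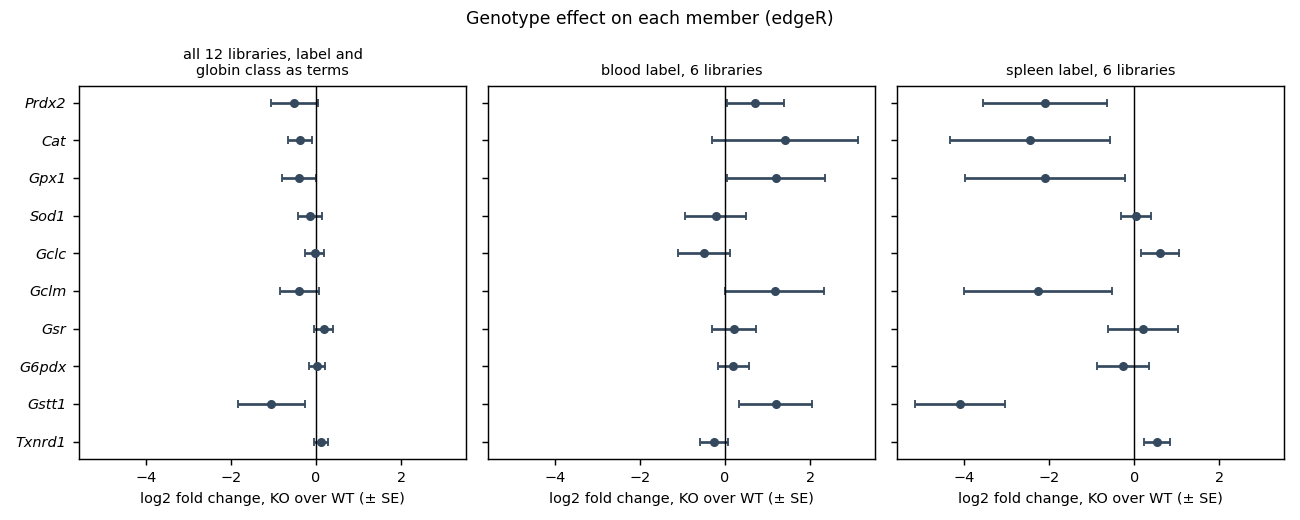
Log2 fold changes of KO over WT (points) with 1 standard error, derived from the F statistic, either side (bars). Values are from edgeR, over all libraries and under each tissue label. Over all libraries the members lie between -1.05 and 0.18, while under the spleen label Gstt1 reaches -4.09 and the intervals of Cat, Gpx1 and Gclm are several log2 units wide.

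Within the blood label alone edgeR called 0 of 15002 genes (0%), although 27 had a p under 0.05 before adjustment, and DESeq2 called 0, with 54. The member estimates ranged from -0.50 ± 0.61 (Gclc) to 1.41 ± 1.71 (Cat), all with an adjusted p of 1. Gstt1 stood at 1.19 ± 0.86, and at -0.41 without KO blood 03. KO blood held 2 globin-rich libraries and WT blood 1. By CPM, 0 members were apart between KO and WT blood, beside 3.49% of genes. Within the spleen label edgeR called 0 of 15402 genes (0%), although 359 had a p under 0.05 before adjustment, and DESeq2 called 0, with 714. Gstt1 stood at -4.09 ± 1.06 (edgeR adjusted p = 0.979), Cat at -2.44 ± 1.89, Gclm at -2.27 ± 1.74, Gpx1 at -2.10 ± 1.87 and Prdx2 at -2.09 ± 1.46. KO spleen held 1 globin-rich library and WT spleen 2, the reverse of blood, and globin class was not a term in either fit. With that term, Cat stood at 0.16 ± 0.33 in blood and -0.60 ± 0.48 in spleen. In spleen Prdx2 then turned to 0.09 ± 1.08 and Gclm to 0.19 ± 0.92, while Gstt1 stood at -2.61 ± 1.30 and Gsr at 0.65 ± 0.23 (edgeR adjusted p = 0.993 for Gstt1 and for Gsr).

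By CPM, 3 members were apart between KO and WT spleen, beside 2.57% of genes. Gstt1 was lower (beside 1.27% of genes), at 16.7, 3.66 and 15.6 CPM in KO spleen (01, 03, 04) and 20.5, 69.9 and 151 CPM in WT spleen (01, 02, 04). Gsr was higher (beside 1.3% of genes, as for G6pdx), at 112, 322 and 107 CPM in KO spleen and 89.5, 105 and 102 CPM in WT spleen. G6pdx was higher, at 69.4, 82.6 and 54.7 CPM in KO spleen and 43.3, 53.8 and 43.0 CPM in WT spleen. None of the 3 was called, and with TMM factors the G6pdx estimate was -0.26 ± 0.61, so its direction turns with the scaling. By TMM-scaled CPM Gstt1 stayed narrowly apart, at 4.37 to 11.1 in KO spleen and 12.7 to 276 in WT spleen. The share of all genes apart on this scale was not computed. Gsr and G6pdx overlapped. Gsr then stood at 74.7, 384 and 65.1 in KO spleen and at 55.5, 205 and 186 in WT spleen.

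Genotype was also compared within each globin class, across the labels. In globin-rich libraries edgeR called 0 of 11844 genes (0%), although 823 had a p under 0.05 before adjustment, while DESeq2 called 34 genes and 0 members. Gstt1 stood at -2.44 ± 1.09 (edgeR adjusted p = 0.705), from -4.68 without KO blood 03 to -1.46 without WT spleen 04. Prdx2 stood at -0.77 ± 0.53 and Gclm at -0.58 ± 0.44, and the other 7 lay between -0.48 and 0.18. By CPM 0 members were apart between KO and WT, beside 12.2% of genes. Without KO blood 02 edgeR called 568 genes, of which 0 were members. In globin-poor libraries edgeR called 0 of 16414 genes (0%), although 145 had a p under 0.05 before adjustment, and DESeq2 called 5 genes and 0 members. All 10 members lay between -0.27 and 0.22 there. This class held 1 blood-labelled KO library against 2 in WT, and with the tissue label as a term Prdx2 turned to 1.12 ± 0.57, Gclm to 0.97 ± 0.55 and Gpx1 to 0.59 ± 0.39 (edgeR adjusted p = 0.741 to 0.742). Gsr was higher by CPM in every globin-poor KO library, beside 2.12% of genes, at an estimate of 0.20 ± 0.18 (edgeR adjusted p = 1). By TMM-scaled CPM these Gsr values overlapped, at 65.1 to 76.3 in KO and 55.5 to 68.2 in WT.

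The difference between the KO effects was tested as an interaction. For spleen against blood edgeR called 0 of 19117 genes (0%), although 248 had a p under 0.05 before adjustment, and DESeq2 called 7 genes and 0 members. Gstt1 stood at -3.60 ± 1.66 (edgeR adjusted p = 1). For globin-rich against globin-poor libraries edgeR called 0 of 19117 (0%), although 1477 had a p under 0.05 before adjustment, and DESeq2 called 59 genes and 0 members. Gstt1 stood at -2.21 ± 1.75, from -3.97 without KO blood 03 to -0.63 without KO spleen 03. Prdx2 stood at -1.85 ± 1.16, the member with the smallest adjusted p (0.710). The Gstt1 estimates were positive in blood and negative in spleen, and neither interaction passed the threshold.

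Of the 85 other pathway genes, 0 were called in any of the 8 comparisons by edgeR. Over all libraries the smallest p among the peroxide genes belonged to Prdx4, the peroxiredoxin of the endoplasmic reticulum, at 0.46 ± 0.21 for KO over WT, and to Gpx7 at -1.09 ± 0.61. The cystine carrier chains Slc7a11 and Slc3a2 stood at -0.50 ± 0.34 and -0.42 ± 0.29. The glutathione transferases Gsto2, which averaged under 1 CPM, and Gstm2 stood at -1.41 ± 0.79 and -0.58 ± 0.41. Idh2 and Me2, mitochondrial enzymes of the NADPH supply list, stood at 0.31 ± 0.16 and 0.23 ± 0.14. Nxn and Txnip of the thioredoxin system stood at -0.28 ± 0.21 and 0.23 ± 0.17. Mafk and Mafg, partners of NRF2, stood at -0.31 ± 0.23 and -0.27 ± 0.20, and the selenoprotein factors Secisbp2 and Sepsecs at 0.28 ± 0.15 and 0.38 ± 0.24. All had an edgeR adjusted p of 0.899.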

How the data were processed

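The authors deposited whole-number counts for each gene in a separate table per library, keyed by Ensembl identifiers. Tools named in the submitters' processing notes are HISAT2 2.0.4, HTSeq, SAMtools 0.1.19, FastQC and Trimmomatic 0.36, and builds named there are mm10 and GRCm38. Neither the annotation release nor the strand setting is given in the sources used here. Libraries were made from 500 ng of total RNA, per the labels' protocols. Symbols, positions and exon lengths came from GENCODE vM21, which held 46091 of the 46603 identifiers. The 12 globin genes were taken out before totals, CPM and TMM factors were computed, and a library was called globin-rich when they took over 25% of its counts. Chi-square tests of the counts of each pair of libraries showed no duplicate (smallest chi-square per degree of freedom 7.17).

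Genes were kept with filterByExpr and tested with edgeR 4.0.16 in R 4.3.3 (quasi-likelihood F test, robust dispersions, TMM). A Benjamini-Hochberg adjusted p under 0.05 over all genes tested was a call. The standard errors given with edgeR estimates were derived from the test. Each is the absolute log2 fold change divided by the square root of the F statistic. The same fit was also run on simulated counts with a fixed dispersion and no difference between globin classes. DESeq2 1.42.0, other scalings and filters, fits with a replicate block, and fits without each library in turn were tried as alternatives. The named genes are the 10 members, pathway genes past the threshold or, where none passed, the 2 of each list with the smallest p over all libraries, and the 3 genes most like each member, of which 1 is not reported here. The members, lists and alternatives were chosen with earlier results of these data known. Promoters are from RefSeq (GRCm38.p6). Plots were drawn with matplotlib 3.10.9 under Python 3.11.15.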

Additional observations from a re-analysis of the deposited data

Results flagged for a closer look

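In each globin class, each member's 6 libraries were checked for a value far from the others by Dixon's test, in 20 groups of libraries, and chance flags about 1 group in 20. Gsr, glutathione reductase, stood at 322 CPM in KO spleen 03, while the other 5 globin-rich libraries lay between 93.9 and 145 CPM. The gap to the nearest library was 0.777 of the whole range. That library also held 5026 CPM of summed neutrophil markers, against 897 to 1657 CPM in the other globin-rich libraries, and their part in the Gsr value was not tested. Cat, catalase, stood at 173 CPM in WT blood 04, while the other 5 globin-poor libraries lay between 78.0 and 106 CPM, a gap of 0.702 of the range. Red cell markers in WT blood 04 summed to 17974 CPM, the highest of the globin-poor libraries.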

How the results depend on the processing

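Globin-rich values rest on 20 to 616 counts for Gstt1, 47 to 185 for Gclc and 61 to 245 for Txnrd1, and the genotype comparisons within a label or class rest on 3 libraries a group. The cause of each change below was not tested. Calls of genes grew in places. DESeq2 called 34 genes in globin-rich libraries, 5 in globin-poor libraries, 1 over all libraries, 410 between the labels, and 7 and 59 in the interactions with label and class, and never a member. No filter called 45 genes in globin-rich libraries, 55 over all libraries (1 a member, Gstt1), 438 between the labels (1 a member, Gclc) and 9 and 98 in the interactions. Without TMM 1 gene was called in the label interaction. By TMM-scaled CPM 5 members were higher and 0 lower in globin-rich libraries. Leaving out 1 library gave 0 to 568 called genes in globin-rich libraries (568 without KO blood 02), 0 to 1 over all libraries, 2 to 13 between the labels (2 without KO spleen 04, 13 without WT blood 03) and 0 to 47 in the class interaction (47 without KO blood 02).

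Same-numbered KO and WT libraries of a label correlated, as deviations from group means over 17555 genes, at -0.24 and 0.67 in blood and at 0.46 and -0.50 in spleen. Over all 13 same-numbered pairs, r was 0.43 to 0.67 within a globin class and -0.77 to -0.24 across classes, so the check cannot tell pairing from globin class. The labels tie the numbers to no animal or batch, and they were not used to pair libraries. A replicate block called 53 genes in globin-rich libraries (1 a member, Gstt1 at -4.33, edgeR adjusted p = 7.6e-11). In that class only number 02 holds both genotypes, so the blocked value sets KO blood 02 against WT spleen 02, 1 library each and under different tissue labels. Under it Gsr turned to -0.53 in spleen and -0.85 in globin-rich libraries, Txnrd1 to 0.79 in globin-rich libraries and G6pdx to -0.018 over all libraries. In globin-poor libraries the block gave 0.87 for Prdx2, 0.43 for Gpx1, 0.37 for Sod1, 0.019 for Gclc and 0.39 for Gclm.

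Other log2 fold changes of KO over WT that turned sign were not called under either setting. With library size only they were Gsr (-0.14) and G6pdx (-0.19) in blood, G6pdx (0.56) in spleen, Sod1 (0.063), G6pdx (0.14) and Txnrd1 (0.20) in globin-rich libraries, Sod1 (0.015) in globin-poor libraries, and Sod1 (0.043) and Gclc (0.15) over all libraries. With globin class as a term they were Sod1 (0.36) and Gsr (-0.036) in blood, and Prdx2 (0.090), Sod1 (-0.032), Gclm (0.19) and G6pdx (0.34) in spleen. With tissue label as a term they were Gclc (-0.15) in globin-rich libraries, and Prdx2 (1.12), Cat (0.067), Gpx1 (0.59), Sod1 (0.36), Gclc (0.40) and Gclm (0.97) in globin-poor libraries. No filter turned G6pdx (0.010) and Txnrd1 (0.12) in globin-rich libraries, and Sod1 (0.0010) and Gclc (0.10) over all libraries. Globin kept turned Gclc (0.032) over all libraries, and DESeq2 turned Sod1 (0.0046) in globin-poor libraries.

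Leaving out each library also turned the sign of estimates that were not called. In blood Sod1 ran from -0.96 to 0.29, Gsr from -0.090 to 0.82, G6pdx from -0.058 to 0.48 and Gstt1 from -0.41 (without KO blood 03) to 1.68. In spleen Sod1 ran from -0.27 to 0.36, Gsr from -0.98 to 0.57 and G6pdx from -0.70 to 0.21. In globin-rich libraries Gclc ran from -0.17 to 0.22, Gsr from -0.45 to 0.51, G6pdx from -0.43 to 0.021 and Txnrd1 from -0.24 to 0.30. In globin-poor libraries Prdx2 ran from -0.95 to 0.57, Cat from -0.51 to 0.17, Gpx1 from -1.02 to 0.31, Sod1 from -0.39 to 0.40, Gclc from -0.58 to 0.24 and Gclm from -0.72 to 0.38. Over all libraries Sod1 ran from -0.32 to 0.11, Gclc from -0.21 to 0.23 and G6pdx from -0.12 to 0.26, and between the labels G6pdx ran from -0.26 to 0.039.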
